A study of Mus musculus with 24 samples.

Results

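The genes described here encode the pore-forming alpha subunits of voltage-gated calcium channels, and the data are the MYT1L sites mapped at them in mouse cortex. The members were 9 protein-coding genes, Cacna1c, Cacna1d and Cacna1s of the Cav1 family, Cacna1a, Cacna1b and Cacna1e of the Cav2 family and Cacna1g, Cacna1h and Cacna1i of the Cav3 family, among 21938 protein-coding genes in the annotation. A site belonged to a member when it touched the gene body or lay within 5 kb of any annotated transcription start of the gene. By this rule the members held 133 sites, and no site belonged to more than 1 of them.

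MYT1L is a transcription factor of neurons with zinc fingers, and CUT&RUN maps a bound protein by directing a nuclease to it with an antibody and sequencing the released DNA. All mice are C57BL/6J by their labels, whereas the methods name C57BL/6N for making and breeding the Myt1l mutant line. The groups were wild type (WT) at embryonic day E18.5, WT at birth (P0), WT adults of 3 months, and adults of 3 months heterozygous for Myt1l (HET). Each group had 3 MYT1L libraries and 3 with a control IgG antibody, 24 in all. In the HET mice 1 Myt1l allele carries a small frameshift deletion in the germ line, the other allele is intact, and a truncated protein lacking nuclear localisation was described, so full-length MYT1L is lowered in these animals rather than absent. The labels name cortex at E18.5 and prefrontal cortex at P0 and in adults, whereas the methods name prefrontal cortex at every stage. E18.5 and P0 libraries were sequenced in run 1 and both adult groups in run 2. A difference between the younger and the adult lists therefore cannot be told apart from an effect of run. E18.5 and P0 shared a run but differ in tissue by their labels. The labels do not say if each library stands for its own animal, and the methods count cells per animal and divide each suspension between the MYT1L and IgG antibodies, which gives 1 animal for each MYT1L library. The tissue holds many cell types, and no expression values were analysed here, so its cell types could not be checked against markers.

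The deposited data are 1 list of sites per group, merged over its 3 MYT1L libraries, with the position of each site and no height or score. The lists of E18.5, P0, adult WT and adult HET held 14477, 40698, 32145 and 56937 sites, with median widths of 593, 276, 167 and 108 bp. Lists with more sites need not reflect more binding, since depth per library is unknown. No value below has a replicate error, and no test between groups could be run. Intervals are exact (Clopper-Pearson) 95% binomial intervals that cover counting error only.

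Voltage-gated calcium channels open when the membrane depolarises and let calcium into the cell, where it triggers transmitter release, gene expression and further currents. The alpha subunit forms the pore and sets the family. Cav1 channels carry long-lasting L-type currents, and those encoded by Cacna1c and Cacna1d couple activity of neurons and heart cells to signalling, whereas the channel of Cacna1s serves contraction of skeletal muscle. Cav2 channels sit mainly at nerve terminals, where the P/Q-type channel of Cacna1a and the N-type channel of Cacna1b drive transmitter release and Cacna1e encodes the R-type channel. Cav3 channels, encoded by Cacna1g, Cacna1h and Cacna1i, open near the resting potential and carry the transient T-type current that shapes burst firing.

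Sites at the members were few at E18.5 and most numerous in the adult HET list. In the order E18.5, P0, adult WT and adult HET, they numbered 13, 40, 21 and 59. These were 0.0898% (0.0478 to 0.154), 0.0983% (0.0702 to 0.134), 0.0653% (0.0404 to 0.09985) and 0.104% (0.0789 to 0.134) of the sites of each list. The intervals overlapped, but overlap of intervals does not show that shares are equal, and no difference between groups was tested. Of the sites that fell in or near genes at least as long as the shortest member, Cacna1h at 59.5 kb, members took 0.258%, 0.261%, 0.186% (0.115 to 0.283) and 0.334% (0.255 to 0.431).

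Most sites lay in 4 long genes. Over the 4 lists Cacna1c held 41 sites, Cacna1e 30, Cacna1d 29 and Cacna1a 17, whereas Cacna1b held 5, Cacna1s, Cacna1g and Cacna1h 3 each and Cacna1i 2. Those with many sites are also the longest, from 609 kb for Cacna1c, 494 kb for Cacna1e and 452 kb for Cacna1d to 252 kb for Cacna1a, and the remaining members span 59.5 to 159 kb. Across the 9 genes the rank correlation of length with the number of sites was 0.88 over all lists and 0.71 to 0.88 within a list, as a description of genes that share the same lists. By family, Cav1 genes held 9, 27, 11 and 26 sites in the order E18.5, P0, adult WT and adult HET, Cav2 genes 4, 11, 8 and 29, and Cav3 genes 0, 2, 2 and 4.

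**Figure D1:**
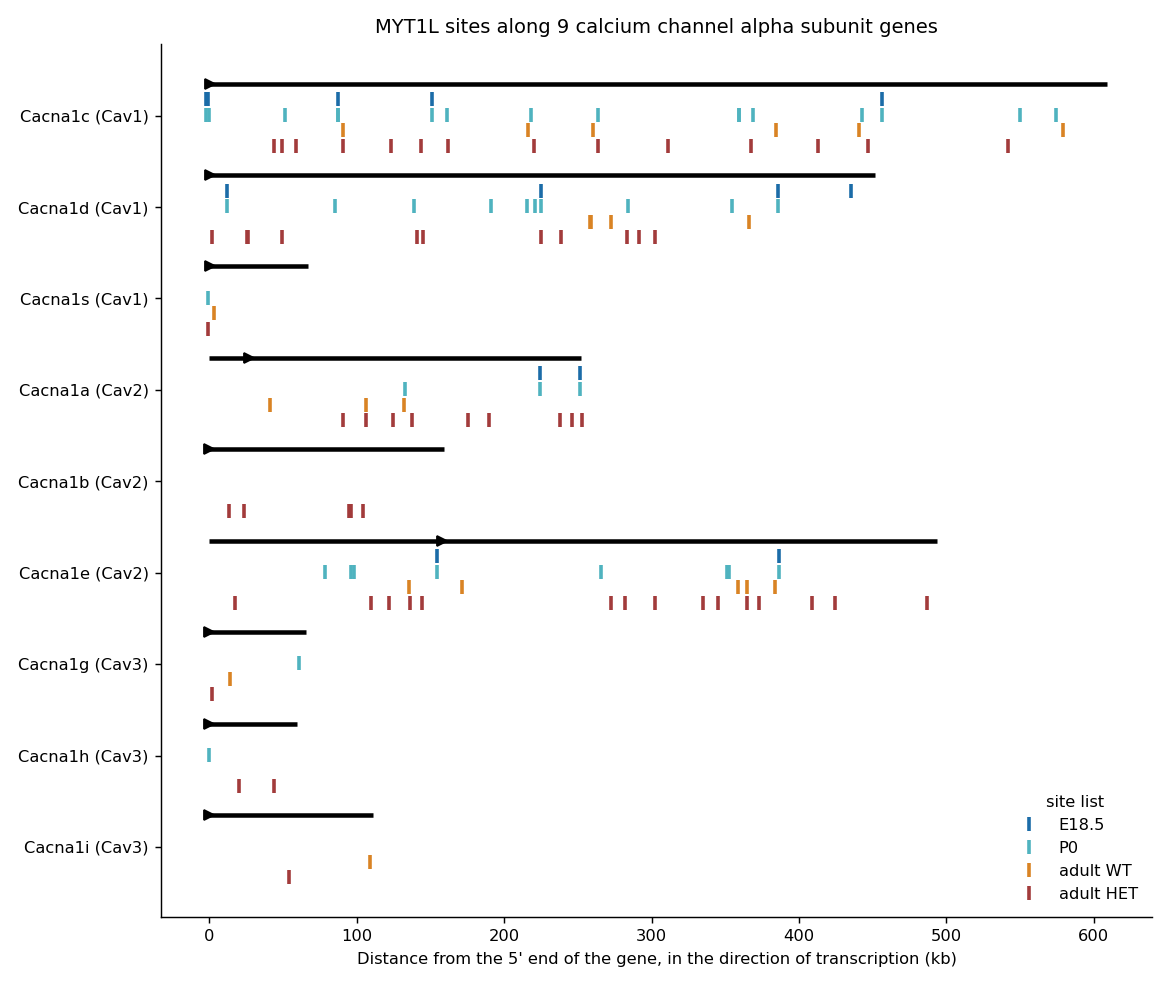
Positions of the sites along the 9 genes. The horizontal axis is the distance in kb from the 5′ end of the gene in the direction of transcription, each black bar is a gene with an arrowhead at the start of its reference transcript, and each tick is the midpoint of a site, in 1 row per list. Cacna1c, Cacna1d, Cacna1a and Cacna1e carry ticks in all 4 lists, whereas Cacna1b has ticks in the adult HET row only.

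Sites near a transcription start were found for 4 (E18.5), 7 (P0), 2 (adult WT) and 7 (adult HET) of the 9 members. Among all protein-coding genes the share with such a site was 31.7%, 48.7%, 24.6% and 30.4%, and among the 4274 protein-coding genes of at least 59.5 kb it was 39.5%, 66.9%, 38.4% and 46.2%. The E18.5, P0 and HET counts were above both backgrounds, and the adult WT count was below both. Each count rests on 9 genes, and no difference from a background was tested. Some members qualified only through the start of a transcript not annotated as protein-coding. These were Cacna1a and Cacna1d at E18.5, Cacna1a and Cacna1g at P0 and Cacna1a and Cacna1h in HET. At Cacna1d this transcript is annotated for nonsense-mediated decay. With starts of protein-coding transcripts alone the counts were 2, 5, 2 and 5 of 9, beside 30.3%, 46.6%, 21.2% and 25.2% of all protein-coding genes. The E18.5 members were Cacna1c, Cacna1d, Cacna1a and Cacna1e. At P0 Cacna1s, Cacna1g and Cacna1h joined them. In adult WT only Cacna1c and Cacna1s qualified, and in adult HET the P0 members did so again, with Cacna1b and Cacna1i lacking a site near a start in every list.

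With sites anywhere in the gene counted, 4, 7, 7 and 9 of the 9 members held a site, beside 58.5%, 84.1%, 75.5% and 87.2% of the long genes. Of the member sites, 6 of 13 at E18.5 lay within 5 kb of a start (46.2%, 19.2 to 74.9), 12 of 40 at P0 (30%, 16.6 to 46.5), 3 of 21 in adult WT (14.3%, 3.05 to 36.3) and 11 of 59 in adult HET (18.6%, 9.69 to 30.9). The same shares over the sites of all long genes were 45.1%, 43.2%, 22.2% and 17.7%. In both sets, sites near starts made up a larger share of the younger lists than of the adult ones. The members' intervals overlapped, and each share of the long genes lay inside the members' interval.

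Cacna1c (chr6:118587240-119196418, minus strand, mm10), the neuronal and cardiac L-type channel gene, held 5, 16, 6 and 14 sites in the same order of lists. These covered 4061, 5256, 1012 and 1429 bp, so the adult HET list had nearly as many sites as P0 but far fewer bases in them. The widest member sites of the E18.5 and P0 lists both lay just upstream of this gene. At E18.5 the site chr6:119197556-119199279 spanned 1724 bp and at P0 chr6:119197709-119199346 spanned 1638 bp, and they shared 1571 bp. They began 1138 and 1291 bp upstream of the start of transcript Cacna1c-212. A shorter pair lay closer to the start, at chr6:119196903-119197331 (429 bp) at E18.5 and chr6:119196854-119196939 (86 bp) at P0, with 37 bp in common. Neither adult list had a site in this upstream stretch.

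That stretch also belongs to another gene. Dcp1b, which encodes an mRNA decapping factor, is read from the opposite strand at chr6:119175253-119221616, overlaps the 5′ end of Cacna1c over 21.2 kb and contains all 4 upstream sites. Its 5′ end lies within Cacna1c, but an internal annotated start of Dcp1b lay 1182 bp from the wide E18.5 site and 1115 bp from the wide P0 site, about as near as the start of Cacna1c. Position alone cannot assign these sites to 1 of the genes. Because the widest sites of both younger lists lie here, 2 pieces of 100 bases at the P0 site are shown, at chr6:119197819-119197918 and chr6:119199263-119199362, the plus strand of the mm10 (GRCm38.p6, RefSeq) sequence with AAAGTT, the word known for MYT1L binding, or its reverse complement AACTTT in capitals.
Cacna1c upstream stretch a: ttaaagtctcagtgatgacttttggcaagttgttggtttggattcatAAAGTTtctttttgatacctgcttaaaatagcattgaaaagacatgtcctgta
Cacna1c upstream stretch b: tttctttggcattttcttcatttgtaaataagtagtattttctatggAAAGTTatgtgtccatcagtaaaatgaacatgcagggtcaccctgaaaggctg
The second piece crosses the upstream edge of the P0 site, and neither word lies within 75 bp of the midpoint of that site.

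Inside Cacna1c, intron 1 (139 kb) held 10 sites over the 4 lists and intron 3 (272 kb) held 17 of the 41. Near an internal start, that of Cacna1c-216 in intron 1, an E18.5 site of 570 bp at chr6:119108882-119109451 coincided with 2 P0 sites, chr6:119108993-119109146 and chr6:119109149-119109461, which are 154 and 313 bp wide. The E18.5 site was thus called as a pair in the P0 list. The adult lists had their sites 2730 bp or more away from it, at chr6:119106019-119106151 (133 bp) in WT and chr6:119105386-119105445 (60 bp) in HET, which did not overlap each other. Within 5 kb of internal starts further along lay chr6:118753854-118754046 (193 bp) at P0, chr6:118755592-118755782 (191 bp) in adult WT and chr6:118783427-118783485 (59 bp) in adult HET. The widest HET site at any member, chr6:119072886-119073129 with 244 bp, was in intron 1 and 6878 bp from the nearest start.

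A Cacna1c site in intron 3 is shown in full because E18.5 and P0 share it and it carries the word: the P0 site chr6:119045563-119045781 of 219 bp lay wholly inside the E18.5 site chr6:119045423-119045813 of 391 bp, 150.6 kb from the start. The capitals are the word.
Cacna1c intron 3 site: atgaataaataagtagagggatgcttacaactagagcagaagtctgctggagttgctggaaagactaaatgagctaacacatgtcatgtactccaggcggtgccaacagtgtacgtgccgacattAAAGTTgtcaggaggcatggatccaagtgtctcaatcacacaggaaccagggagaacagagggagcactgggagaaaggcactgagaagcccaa

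Cacna1d (chr14:30039939-30491455, minus strand), whose L-type channel opens at lower voltages than that of Cacna1c and paces neurons and the sinus node, held 4, 10, 4 and 11 sites in E18.5, P0, adult WT and adult HET. They covered 1787, 2827, 922 and 1163 bp. Introns 1 and 3, of 140 and 150 kb, held 8 and 14 of its 29 sites. Of 117 separate places at the members, where overlapping sites are joined, the only 1 present in 3 lists lay in Cacna1d intron 3. It was chr14:30266433-30266966 (534 bp) at E18.5, chr14:30266546-30266778 (233 bp) at P0 and chr14:30266620-30266726 (107 bp) in adult HET. Each site lay wholly within the next wider one, and the adult WT list had none there. The P0 site is printed on the plus strand with the 107 bases common to all 3 lists in capitals.
Cacna1d intron 3 site: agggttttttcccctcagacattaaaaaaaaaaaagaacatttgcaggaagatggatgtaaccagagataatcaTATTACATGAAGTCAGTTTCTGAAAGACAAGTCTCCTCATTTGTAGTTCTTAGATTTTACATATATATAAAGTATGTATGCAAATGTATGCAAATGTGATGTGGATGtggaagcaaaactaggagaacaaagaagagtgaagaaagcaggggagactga

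At Cacna1d the other sites shared by E18.5 and P0 lay in intron 1 and intron 21. The intron 1 pair, chr14:30479433-30479802 (370 bp) and chr14:30479433-30479749 (317 bp), lay 11354 bp or more from any start of Cacna1d but covered the annotated start of Dcp1a, a gene for a related decapping factor, which runs on the opposite strand at chr14:30479535-30527063 and overlaps Cacna1d over 11.9 kb. The genes that encode these related decapping factors thus lie over the 5′ ends of Cacna1c and Cacna1d in the same arrangement, but the shared sites covered the 5′ end of Dcp1a and lay near an internal start only of Dcp1b. The intron 21 pair, chr14:30105678-30105942 (265 bp) and chr14:30105489-30105898 (410 bp), counted as near a start only through a transcript annotated for nonsense-mediated decay, and the nearest start of a coding transcript was at least 247049 bp away. Near the start of the coding transcript Cacna1d-204 lay a P0 site of 220 bp (chr14:30352212-30352431, 560 bp away) and a HET site of 75 bp (chr14:30350597-30350671, 2320 bp away). A HET site of 128 bp (chr14:30489460-30489587) was the only 1 within 5 kb of the reference start, at 1569 bp. The single E18.5 site at the members without a P0 counterpart was chr14:30055913-30056530 (618 bp) in intron 39.

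The widest adult WT site at any member was also in Cacna1d, in intron 11 at chr14:30124844-30125276 (433 bp), where no other list had a site. The 150 bases around its midpoint (chr14:30124985-30125134) are given with the word, here as its reverse complement, in capitals.
Cacna1d intron 11 window: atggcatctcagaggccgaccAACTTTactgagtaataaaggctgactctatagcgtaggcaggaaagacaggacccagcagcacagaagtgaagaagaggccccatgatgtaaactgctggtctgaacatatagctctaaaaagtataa

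Cacna1s (chr1:136052750-136119822, plus strand), the skeletal muscle gene, held no site at E18.5 and 1 in each of the other lists, all within 5 kb of a start. The P0 site chr1:136051563-136051818 (256 bp) and the HET site chr1:136051603-136051677 (75 bp) lay upstream, 932 and 1073 bp from the start of Cacna1s-204. They were 759 and 799 bp from the start of Ascl5, a gene of the achaete-scute bHLH family. The adult WT site chr1:136055880-136056134 (255 bp) was in intron 2, 2979 bp from the reference start, and met neither. Since P0 and HET coincided here while adult WT did not, the P0 site is shown with the 75 bases of the HET site in capitals.
Cacna1s upstream site: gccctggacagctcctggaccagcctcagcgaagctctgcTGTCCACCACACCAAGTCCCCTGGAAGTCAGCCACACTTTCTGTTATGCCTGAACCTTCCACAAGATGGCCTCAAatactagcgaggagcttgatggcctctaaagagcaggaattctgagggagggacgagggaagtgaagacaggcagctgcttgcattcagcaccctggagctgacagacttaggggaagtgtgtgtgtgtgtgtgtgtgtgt

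Of the Cav2 genes, Cacna1a (chr8:84388440-84640246, plus strand), the P/Q-type channel gene, held 2, 3, 3 and 9 sites. They covered 1325, 1298, 542 and 1016 bp. Both E18.5 sites recurred at P0 and neither recurred in adults. The wider pair, chr8:84639419-84640341 (923 bp) and chr8:84639275-84640140 (866 bp), had their midpoints in the 3′ UTR and shared 722 bp. They counted as near a start through a non-coding transcript, Cacna1a-205, and the nearest coding start was at least 223491 bp away. The other pair, chr8:84612803-84613204 (402 bp) and chr8:84612911-84613162 (252 bp), lay in intron 36, where 65.9% and 76.6% of the bases were masked as repeats. Of the 9 HET sites, chr8:84634316-84634377 (62 bp) and chr8:84640990-84641174 (185 bp) lay near the same non-coding start. No list had a site within 5 kb of a start of a coding transcript of Cacna1a.

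Cacna1a intron 3 held the only place at the members common to both adult lists. The adult WT site chr8:84494932-84495115 (184 bp) and the HET site chr8:84494804-84494956 (153 bp) met over 25 bases, 13.6% of the first and 16.3% of the second. These bases are, on the plus strand:
Cacna1a intron 3 shared bases: ACACGTCACGGGGCTGGAACAGTCA
All 25 are in capitals because all are common to both sites, at chr8:84494932-84494956. They hold no AAAGTT.

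**Figure D2:**
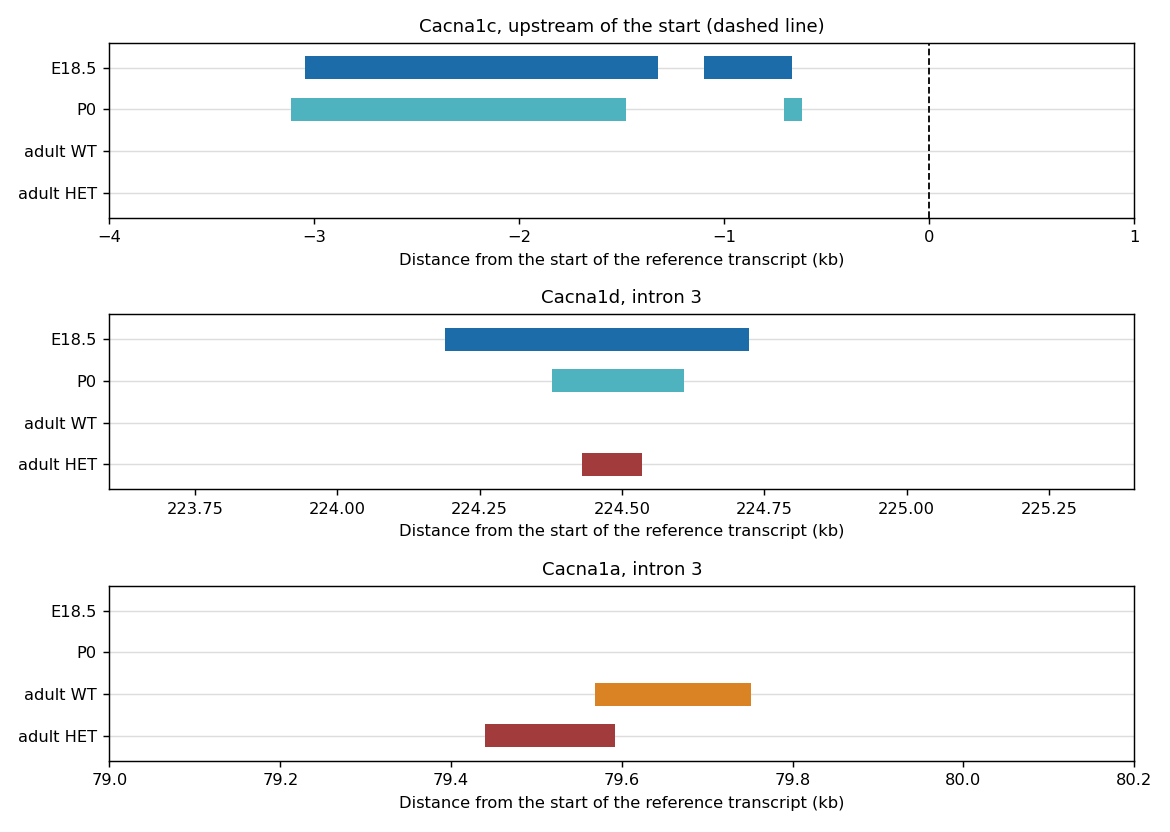
Sites at 3 places of the members. The horizontal axis is the distance in kb from the start of the reference transcript in the direction of transcription, and each bar is a site of the list named at the left, drawn to scale. Upstream of Cacna1c the E18.5 and P0 bars coincide and the adult rows are empty, in Cacna1d intron 3 the E18.5, P0 and adult HET bars are nested (534, 233 and 107 bp), and in Cacna1a intron 3 the adult bars meet over 25 bp.

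Cacna1b (chr2:24603887-24763152, minus strand), the N-type channel gene, had sites in the adult HET list only. The 5 sites were 81 to 165 bp wide, lay in introns 3, 20 and 21, and were between 13220 and 23120 bp from the nearest start. Of these, chr2:24666983-24667147 and chr2:24749747-24749827 consisted wholly of repeat-masked bases.

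Cacna1e (chr1:154390731-154884501, minus strand), the R-type channel gene, held 2, 8, 5 and 15 sites, covering 650, 2095, 1007 and 1787 bp. Its 15 HET sites were the most of any member in any list except the 16 P0 sites of Cacna1c. Intron 7 (68.3 kb) held 11 of its 30 sites, and a further 11 lay upstream of its reference transcript, inside the longer forms of the gene. Both E18.5 sites recurred at P0. One pair lay 3231 and 3282 bp upstream of the start of the reference transcript Cacna1e-203, at chr1:154729587-154729874 (288 bp) and chr1:154729638-154729999 (362 bp). Near other starts, HET had chr1:154475862-154475984 (123 bp) at a retained-intron transcript and chr1:154867229-154867335 (107 bp) at the coding transcript Cacna1e-207. The other pair, chr1:154497685-154498046 (362 bp) and chr1:154497704-154498012 (309 bp), lay in intron 7 with midpoints 8 bp apart. Its central 150 bases (chr1:154497783-154497932) are shown because they carry the word on both strands, in capitals.
Cacna1e intron 7 window: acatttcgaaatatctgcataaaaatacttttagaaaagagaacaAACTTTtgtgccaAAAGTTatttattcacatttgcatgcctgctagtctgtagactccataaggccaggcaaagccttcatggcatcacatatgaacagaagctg

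The Cav3 genes had no site at E18.5 and 8 over the other lists. Cacna1g (chr11:94408391-94474198, minus strand) had 1 site in each later list, and these lay in 3 different introns. They were chr11:94413410-94413526 (117 bp, intron 33) at P0, chr11:94460141-94460329 (189 bp, intron 7) in adult WT and chr11:94472508-94472605 (98 bp, intron 1) in adult HET. The HET site was 1495 bp from a coding start, whereas the P0 site was near a non-coding transcript only. Cacna1h (chr17:25374285-25433783, minus strand) had a P0 site of 486 bp at chr17:25434102-25434587, 319 bp upstream of the reference start, the nearest that any member site came to a reference start. Its HET sites were chr17:25389943-25390116 (174 bp), near a retained-intron transcript, and chr17:25413429-25413536 (108 bp), all repeat. Cacna1i (chr15:80287238-80398279, plus strand) had an adult WT site of 110 bp in its 3′ UTR (chr15:80395837-80395946) and a HET site of 98 bp in intron 5 (chr15:80340993-80341090), neither near a start. The Cav3 genes are the shortest of the members apart from Cacna1s, and each of their places was in 1 list only.

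Between the adult genotypes, HET listed more sites than WT at 6 members, Cacna1c (14 against 6), Cacna1d (11 against 4), Cacna1e (15 against 5), Cacna1a (9 against 3), Cacna1b (5 against 0) and Cacna1h (2 against 0). Cacna1s, Cacna1g and Cacna1i had 1 in each. The HET list as a whole was longer, 56937 against 32145 sites, and its sites narrower. Pooled over the long genes the density was also higher in HET, 2.28 against 1.46 sites per 100 kb. The share of all genes with more HET than WT sites was not counted, so the count of 6 cannot be read as particular to the members. In bases the members had 6564 bp in HET sites and 4037 bp in WT sites. As given above, the intervals of the members' shares of the adult lists overlapped, but whether the shares differ was not tested.

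Adjusted for length, no member lay above the highest decile of the long genes in any list, but the pooled densities differed. The lowest decile was 0 in every list, so no gene could lie below it. Over all members the density was 0.559, 1.72, 0.904 and 2.54 sites per 100 kb searched in E18.5, P0, adult WT and adult HET, and pooled over the long genes it was 0.661, 1.99, 1.46 and 2.28. The members were thus below the pooled long genes in the 3 WT lists and above them in HET. The gap was widest in adult WT, 0.904 against 1.46. These densities carry no interval, and the differences were not tested. The median member density was 0, 1.38, 0.977 and 2.41, against medians of 0.506, 1.7, 1.16 and 1.93 over the long genes. At E18.5 Cacna1d was densest at 0.876 per 100 kb, ahead of Cacna1c at 0.814 and Cacna1a at 0.768. At P0 Cacna1c led with 2.61, above 67.4% of the long genes, followed by Cacna1d with 2.19. In adult WT the values of the members with sites lay between 0.862 in Cacna1i and 1.38 in Cacna1g, each of which rests on 1 site. In adult HET Cacna1a reached 3.45, above 81.5% of the long genes, followed by Cacna1h (3.08), Cacna1b (3.02) and Cacna1e (3.01), and the other members had 0.862 (Cacna1i) to 2.41 (Cacna1d).

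**Figure D3:**
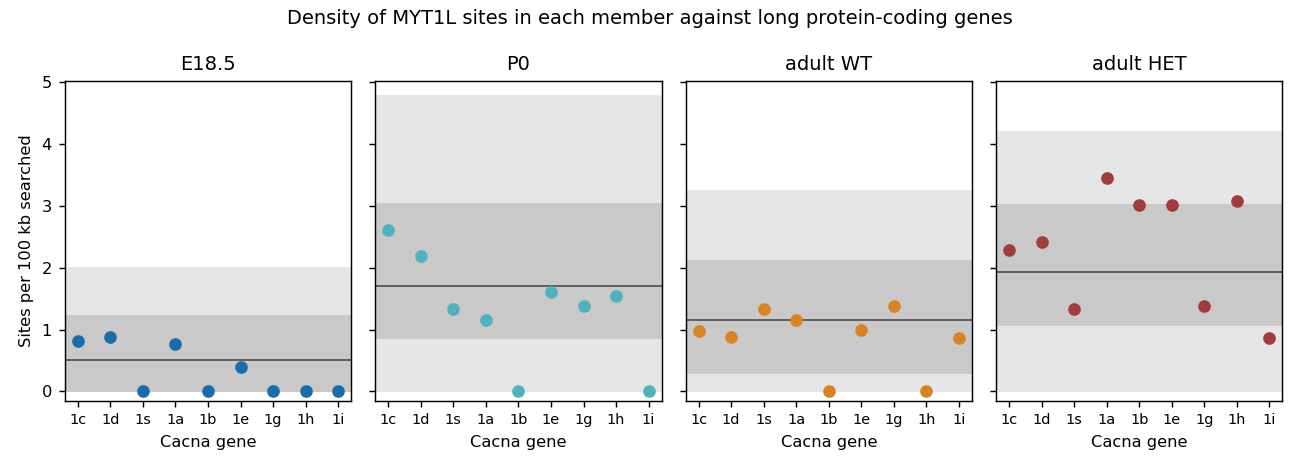
Sites per 100 kb of searched sequence in each member, 1 panel per list. Points are the 9 genes (1c stands for Cacna1c and so on), the grey line is the median over 4274 protein-coding genes of at least 59.5 kb, the dark band their interquartile range and the light band the range between their lowest and highest deciles. The lower edge of the light band is 0 in every panel, so no point can lie below it. No point lies above the light band, and in adult HET Cacna1a and Cacna1h lie above the dark band.

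Places at the members were mostly used in 1 list. Of the 117 places, 103 were in 1 list, 13 in 2 lists, 1 in 3 lists and 0 in all 4. Joined in the same way, the sites of the whole genome gave 121674 places, of which 86.3% were in 1 list, 11% in 2, 2.22% in 3 and 0.485% in all 4. The members' share in 1 list, 88% (80.7 to 93.3), was near that background. The adult HET list alone held 56, the P0 list alone 26, the adult WT list alone 20 and the E18.5 list alone 1, whereas 11 were shared by E18.5 and P0 and no other list. The whole lists of HET, P0, adult WT and E18.5 held 56937, 40698, 32145 and 14477 sites. Places of the whole genome were not split by list, so these counts cannot be read as particular to the members. Of the 13 E18.5 sites, 12 overlapped a P0 site (92.3%, 64 to 99.8), beside 88.3% of all E18.5 sites. Conversely 13 of 40 P0 sites overlapped an E18.5 site (32.5%, 18.6 to 49.1), beside 34.8% of all. The E18.5 sites at the members were thus nearly all present at P0, and the P0 list added others.

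No adult WT site at a member overlapped an E18.5 or P0 site. This was 0 of 21 in both cases, an interval of 0 to 16.1%, and over the whole adult WT list the shares were 8.86% and 10.4%. From the other side, 0 of 13 E18.5 sites (0 to 24.7%) and 0 of 40 P0 sites (0 to 8.81%) met an adult WT site, beside 18.4% and 7.99% of all sites. The smallest distance from an adult WT member site was 270 bp to a P0 site and 2730 bp to an E18.5 site. With these counts, an absence of overlap at the members could not be separated from the list-wide shares. Adult HET shared 1 of 59 sites with E18.5, 2 with P0 and 1 with adult WT (1.69%, 3.39% and 1.69%), beside 2.74%, 3.425% and 4.9% of all HET sites. Of the 21 adult WT sites, 1 met a HET site (4.76%, 0.1205 to 23.8), beside 8.38% of all. The adult genotypes therefore coincided at 1 place of the members, and few sites coincided between these lists anywhere.

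**Figure D4:**
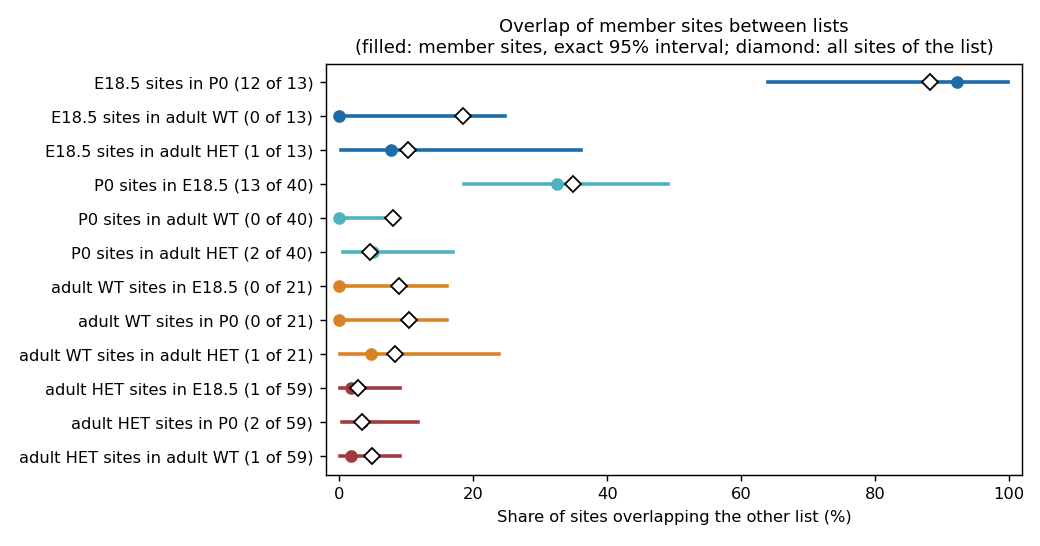
Share of member sites with 1 bp or more in common with another list. The horizontal axis is the share in %, filled points are member sites with exact 95% intervals, and open diamonds are all sites of the same list. E18.5 sites in P0 stand at 92.3% for members and 88.3% for all sites, the comparisons between younger and adult lists stay at or below 7.69% for members, and each diamond lies within the interval of its point.

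Within the genes, 110 of the 133 sites had their midpoint in an intron of the reference transcript, 18 lay upstream of it, 4 in a 3′ UTR, 1 downstream and 0 in a coding exon. Exons make up 3.86% of the spans of the reference transcripts. Introns 1 to 3 held 62 of the 110 intronic sites and 51.1% of the intronic bases, but the genes differed. In Cacna1c they held 28 of 37 intronic sites and 69.7% of the bases, and in Cacna1d 23 of 29 and 66.4%. In Cacna1a they held 5 of 14 and 45.5%, and in Cacna1e 1 of 18 and 27.9%. Another protein-coding gene covered 7 of the 133 sites, Dcp1b in the case of Cacna1c and Dcp1a in that of Cacna1d.

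Member sites became narrower from list to list, as all sites did. Their median width was 429 bp at E18.5 (265 to 1724), 226.5 bp at P0 (86 to 1638), 189 bp in adult WT (82 to 433) and 104 bp in adult HET (40 to 244). Median GC content was 45.1%, 46.6%, 46.6% and 41.4%, beside 45.4%, 44.3%, 40.9% and 37.9% over all sites. Sites with at least as many repeat-masked as other bases numbered 1 of 13, 2 of 40, 2 of 21 and 14 of 59, so they were most frequent in HET. The mean repeat content of member sites was 15.5%, 13.6%, 20.9% and 29.5% in the order E18.5, P0, adult WT and adult HET. Over all sites it was 12.9%, 14.7%, 23.5% and 33.4%, so the HET list as a whole was also the richest in repeats.

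The word AAAGTT, searched on both strands within 75 bp of the midpoint, was found at 17 of the 133 sites (12.8%, 7.63 to 19.7). By list it was at 2 of 13 (15.4%), 7 of 40 (17.5%), 4 of 21 (19.05%) and 4 of 59 (6.78%, 1.88 to 16.5), beside 15.1%, 14.6%, 13.7% and 14.5% of all sites. Each list-wide share lay within the members' interval. In Cacna1e it occurred at 1 of 2, 3 of 8, 1 of 5 and 1 of 15 sites, and in Cacna1c at 0 of 5, 2 of 16, 1 of 6 and 1 of 14. The word is short, and a match describes the sequence only.

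Other genes of calcium signalling, 55 in all, were set beside the members. A site near a start was present at 20, 35, 19 and 28 of the 55 in the E18.5, P0, adult WT and adult HET lists. In no list did 9 of the 55 have one, and the share of all protein-coding genes without one in any list was not counted. Among all protein-coding genes 31.7%, 48.7%, 24.6% and 30.4% had one, and the counts of the groups below, each of 16 genes or fewer, are to be read beside these shares. Of 16 genes for auxiliary subunits, which traffic the pore and tune its gating, the counts were 2, 10, 4 and 10. The E18.5 ones were Cacna2d1 and Cacna2d3, which encode alpha2delta subunits. Near a start Cacna2d1 held 2, 6, 2 and 2 sites and Cacna2d3 held 1, 3, 0 and 1. With sites anywhere in the gene counted, Cacna2d1 (439821 bp) held 9, 24, 6 and 12 and Cacna2d3 (816922 bp) held 5, 11, 2 and 23. Both genes are long, and these counts are not adjusted for length. Cacna1f, a further Cav1 gene known from the retina that is not among the members or in the Cav1 counts above, and the sodium leak channel gene Nalcn had 0, 1, 1 and 0 of 2, and the 8 regulators that bind the channels, small GTPases, Stac adaptors and Cabp1, had 3, 5, 0 and 2.

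Of 6 intracellular release channel genes, 2, 2, 4 and 3 had a site near a start, and Ryr1 and Itpr1, a ryanodine and an inositol trisphosphate receptor gene, had one in all 4 lists. Store-operated entry genes, which refill calcium stores, stood at 4, 5, 1 and 2 of 5, with Orai3 in 4 lists and Stim2 in 3. Active zone partners of Cav2 channels stood at 1, 5, 1 and 2 of 6, with Rimbp2 in 3 lists. The calcium-activated potassium channel genes had 3, 3, 4 and 3 of 4, with Kcnn2 and Kcnn3 in all 4 lists and Kcnma1 in 3. Effectors had 5, 4, 4 and 6 of 8. Ppp3cb, a calcineurin subunit gene, was in all 4 lists, and Calm2, Camk2b and Ppp3ca in 3. Of the members, Cacna1c alone had a site near a start in all 4 lists, and Cacna1d, Cacna1s, Cacna1a and Cacna1e had one in 3. Cacna1c has 14 annotated starts, the most of any member, and Cacna1a qualified only through the start of a non-coding transcript. The share of all protein-coding genes with such a site in 3 or 4 lists was not counted.

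Among 4273 long protein-coding genes, those with densities most like Cacna1c over the 4 lists were Dnajc13 (distance 0.15 on the scale of log2 of sites per 100 kb plus 1), Nyap2 and Pms1 (0.18 each), Fgfr2 (0.2, annotated over 2961 kb) and its own relative Cacna1d (0.21). Nyap2 held 2, 8, 3 and 6 sites and Dnajc13 and Pms1 1, 3, 1 and 3 each. The likeness is over 4 values per gene and is a description.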

How the data were processed

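CUT&RUN libraries of 4 groups (3 MYT1L and 3 IgG each) were processed by the authors with the nf-core/cutandrun pipeline on mm10. How reads were aligned and peaks called, at which threshold and whether against IgG, is not given in the sources used here. As deposited by the authors, the unit is a position in bp: 1 merged list of sites per MYT1L group, without scores, so that neither depth nor support among libraries was known and wide and narrow sites counted alike. The 12 IgG libraries were not analysed here. Some adult libraries have Myt2l or Myt3l in their titles and were taken as MYT1L because their descriptions name that list. Start and end of each site were used as deposited and counted from 1.

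Genes and transcripts came from GENCODE M21 for GRCm38 (mm10) and bases from the RefSeq GRCm38.p6 genome. The reference transcript of a gene was the longest principal coding transcript. Overlap meant at least 1 shared bp. AAAGTT was searched within 75 bp of site midpoints. Shares have exact (Clopper-Pearson) 95% intervals, and no test was run. Named were all members, their sites within 5 kb of a start, the place in 3 lists and the widest site per list, auxiliary subunit genes with an E18.5 site near a start, other calcium genes in 3 or more lists, and the 5 genes nearest to the member with most sites. A gene that this rule would name is not reported here. Other sites in the text were chosen after their positions were seen. The members and gene lists were chosen with earlier results of these data known. Overlap and counting were tested on simulated data. Python 3.11.15, numpy 2.4.6, scipy 1.17.1, matplotlib 3.10.9 and samtools 1.23.1 were used. Alternatives were other distances, coding starts, wider sites, stricter overlap and other motif windows.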

Additional observations from a re-analysis of the deposited data

How the results depend on the processing

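Of 96 alternative values, 69 stayed within 1.5 times the reported count or within the interval of the reported share, and 27 did not. Within 1 kb of a start, members with a site numbered 2 at E18.5, 0 in adult WT and 2 in adult HET. Beside them, 27.7%, 13.9% and 12.1% of all protein-coding genes had such a site. At E18.5 the members thus went from above to below the background. Other calcium genes within 1 kb numbered 11 in adult WT and 15 in adult HET, to be read beside the same shares. Within 10 kb, 4 members had a site in adult WT, beside 33.4% of all protein-coding genes. With coding starts alone the E18.5 count fell to 2 members, also below the background of 30.3%. Adult WT fell to 10 other calcium genes, beside 21.2% of all protein-coding genes. With sites at least as wide as the median of their list, members with a site numbered 2 at E18.5 and 4 in adult HET. Other calcium genes then numbered 8 at E18.5, 21 at P0 and 15 in adult HET. The shares of all protein-coding genes were 18.4% at E18.5, 36.4% at P0 and 18.4% in adult HET. Member sites of that width numbered 4, 16, 12 and 26 in the 4 lists. Under that setting the overlap of member sites of E18.5 and P0 with adult HET, and of adult HET with E18.5 and P0, was 0%. Where an overlap had to cover 50% of the shorter site, that between adult WT and adult HET was 0% both ways. AAAGTT within 250 bp was at 61.5% of E18.5, 37.5% of P0 and 27.1% of adult HET sites, and in the whole site at 53.8% of E18.5 sites, as longer sequence was searched. With a further A or T required after the word, the shares were 7.69%, 7.5%, 9.52% and 3.39% in the 4 lists, lower but within the intervals. No paired analysis was possible because the lists are merged over libraries and no result comes from a test. The few sites per gene limit what any gene can show, and unknown depth limits every comparison between lists.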
